A study of Drosophila melanogaster with 4 samples.

Results

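The regions described here are the clusters of POF on chromosome 4 of Drosophila melanogaster, meaning stretches that the authors listed as significantly enriched in chromatin immunoprecipitation followed by sequencing (ChIP-seq). They were taken as every enriched row on chromosome 4 in each of the 3 deposited lists. ChIP replicate 1 had 85 such clusters of 6572 in its list, ChIP replicate 2 had 75 of 5227, and the list for the whole series, here called the replicate set, had 88 of 9053. The chromatin came from head nuclei of wild-type Oregon-R flies (Oregon-R-modENCODE) of mixed adult age, reared together in population cages, so each library pooled many flies and the cell types of the whole head. There were 2 ChIP samples, precipitated with the POF antibody MO 459, and 2 input samples, each the background for the ChIP list of the same replicate number. No genotype or treatment was varied. Whether each replicate had its own fly culture is not stated in the labels, so their spread may be only technical. The inputs were not analysed here and read depth is unknown.

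POF is an RNA-binding protein that coats and is named for painting chromosome 4, the small, largely heterochromatic autosome of Drosophila, and it is known for binding the transcribed genes of that chromosome and raising their output. It works beside the heterochromatin protein HP1a, with which it shares much of its binding on chromosome 4, and its recruitment depends in part on a histone methyltransferase that marks the same chromatin. Chromosome 4 is gene-dense despite its heterochromatin: a gene table of Release 6 of the assembly lists 114 genes there, 80 of them protein-coding. Among them are pan, the transcriptional effector of Wnt signalling, zfh2, a homeodomain zinc-finger factor, the axon guidance genes Eph and Ephrin, CaMKII, a kinase of synaptic plasticity, and unc-13, which primes synaptic vesicles. The cluster positions follow FlyBase release 5, and no gene was placed on them, because positions are not carried between assemblies here.

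The 3 lists drew much the same map of chromosome 4, which is 1351857 bases long. The replicate set is taken, from its name, to combine the same ChIP samples, though how is not stated. Its match with either replicate is therefore not treated as independent. Only replicate 1 against replicate 2 compares separate samples. All 3 lists covered 850 kb of it, or 62.9%, and none of them covered 343 kb, or 25.4%. A further 61.1 kb was covered in the replicate set alone, 58.8 kb in the replicate set and replicate 1, and 33.1 kb in the replicate set and replicate 2. Of the chromosome 4 cover of replicate 1, 99.5% lay inside clusters of the replicate set, and of that of replicate 2, 99.8%. Sequence covered in replicate 1 alone added up to 4.65 kb in 23 stretches and that in replicate 2 alone to 1.40 kb in 18, and a single whole cluster, at 769162 to 770488 in replicate 1, lay outside the replicate set. The covered share was 67.6% in replicate 1 and 65.4% in replicate 2, a mean of 66.5% ± 1.51 (SD, n = 2).

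Most of that cover belonged to few, very wide clusters. Clusters of at least 20 kb, called blocks below, numbered 17 of 88 in the replicate set, 15 of 85 in replicate 1 and 15 of 75 in replicate 2. Over all chromosomes such clusters made up 0.188%, 0.228% and 0.287% of these lists, and each of them lay on chromosome 4. Of the length covered on chromosome 4, blocks held 77.8% in the replicate set, 63.4% in replicate 1 and 69.8% in replicate 2. The limit of 20 kb was chosen with the widths known. In the replicate set the narrowest block measured 20.4 kb and the widest cluster below the limit 15.2 kb, against 20.5 and 19.0 kb in replicate 1 and 21.7 and 19.4 kb in replicate 2. At the other end of the scale, clusters narrower than 2 kb numbered 17, 19 and 31 in replicate 1, replicate 2 and the replicate set and held only 28.1, 29.5 and 44.6 kb.

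The 17 blocks of the replicate set, numbered in order of position, spanned 780 kb, or 57.7% of the chromosome. Blocks 1 to 5 lay at 48705 to 79203, 127050 to 166390, 187545 to 252509, 263051 to 314974 and 315016 to 341429. Blocks 6 and 7 lay at 355948 to 398024 and 454293 to 506115. Blocks 8 to 11 lay at 560925 to 612529, 624623 to 658728, 658863 to 693262 and 699777 to 720206, and were followed by the longest stretch without a block. Blocks 12 to 14 lay at 872946 to 928262, 933069 to 984161 and 1022301 to 1106807. Blocks 15 to 17 lay at 1129725 to 1172424, 1178591 to 1220276 and 1222268 to 1279104. In the replicates the same ground was covered almost fully but not always by a single cluster. Replicate 1 covered between 92.4% and 99.2% of each block, with a median of 97.4%, and replicate 2 between 86.2% and 99.99%, with a median of 95.4%.

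Whether a block appeared whole or in pieces differed between the lists. Of the 17 blocks, 12 were split into several clusters in replicate 1 and 8 in replicate 2, a mean of 10.0 ± 2.83 (SD, n = 2). With replicate clusters less than 1000 bases apart joined first, the mean was 5.00 ± 1.41 (SD, n = 2). All 8 blocks split in replicate 2 were split in replicate 1 as well, and 4 were split in replicate 1 alone. Whole in replicate 2 did not mean covered to the edge. Of these 4, its single cluster began 1223 bases inside block 5 and 5744 bases inside block 16. Most or all of the first piece of replicate 1 lay before that start. The 5 blocks that stood as a single cluster in every list were blocks 2, 6, 7, 12 and 15. Replicate 1 cut 5 blocks into 2 clusters, 5 into 3, 1 into 4 and 1 into 5, whereas replicate 2 cut 2 blocks into 2 and 6 into 3. The replicate 1 cluster at 314957 to 316281 only just reached into block 4, which ended at 314974. It lay mostly in block 5 and was counted in both. Width was at most weakly related to the number of pieces: across the 17 blocks the Spearman correlation of width with the number of clusters was 0.07 in replicate 1 and 0.27 in replicate 2, values given as a description over blocks that share their libraries.

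**Figure D1:**
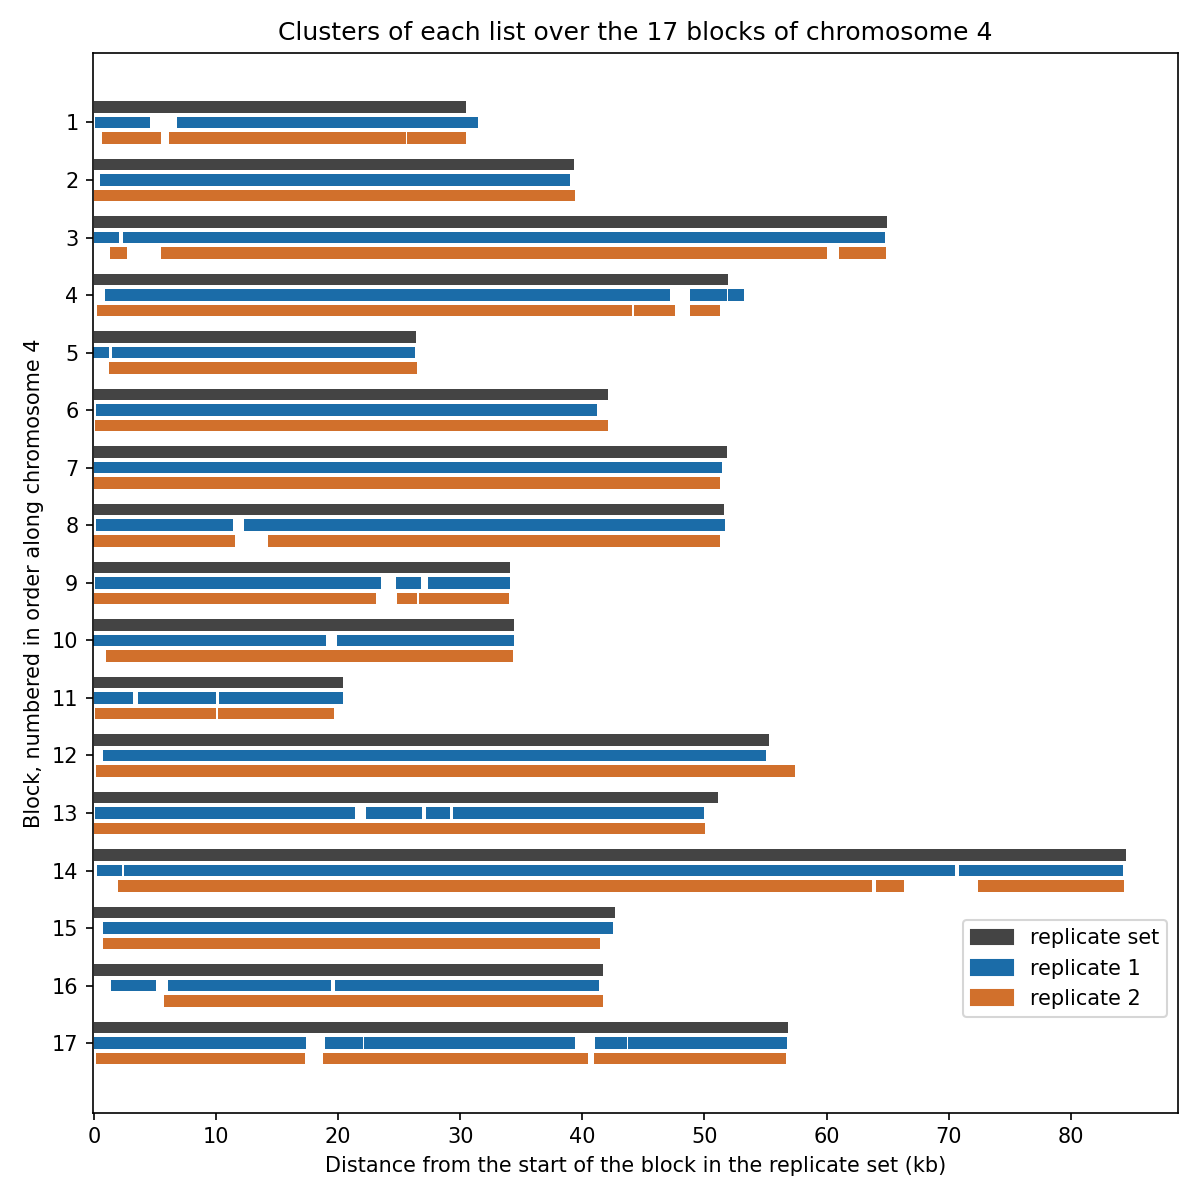
Clusters of the replicate set (grey), replicate 1 (blue) and replicate 2 (orange) over each of the 17 blocks, by distance in kb from the block's start in the replicate set; white spaces within a row are uncovered breaks. Blocks 2, 6, 7, 12 and 15 are single bars in all 3 lists, and block 17 falls into 5 clusters in replicate 1 and 3 in replicate 2.

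The breaks inside blocks were short. Replicate 1 had 22 of them, from 22 to 2237 bases long with a median of 394.5 bases, and replicate 2 had 14, from 97 to 6121 bases with a median of 818 bases. Together they took 15.3 kb of the blocks in replicate 1 and 19.2 kb in replicate 2. Of the 22 breaks of replicate 1, 10 shared at least 1 base with uncovered sequence of replicate 2, and the other 12 were fully covered there. Of the 14 breaks of replicate 2, 8 met uncovered sequence of replicate 1. When a break had to share at least 50% of its length with an uncovered stretch of the other replicate, and that stretch likewise, 4 remained in each list.

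Those 4 shared breaks marked the positions where both replicates interrupted a block over largely the same bases while the replicate set ran through. The overlap was closest in block 17, at 92.9% or more of each break, and least in block 9, at 70.8% or more. In block 17, replicate 1 was uncovered from 1239613 to 1241162 and replicate 2 from 1239557 to 1241052, 1550 and 1496 bases. In block 9 the breaks ran from 648136 to 649354 in replicate 1 and from 647708 to 649428 in replicate 2. In block 4 they ran from 310206 to 311839 and from 310638 to 311849, and in block 11 from 709765 to 710005 and from 709778 to 709973. The last of these was only 241 bases wide in replicate 1 and 196 bases in replicate 2.

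Other breaks met only in part. In block 8, replicate 1 was uncovered for 933 bases from 572302 and replicate 2 for 2772 bases from 572451, so both resumed after an almost common left edge at different positions. In block 1, a break of 2237 bases in replicate 1 from 53311 enclosed the whole break of 635 bases in replicate 2 from 54206. In the second interruption of block 17, the 479 bases of replicate 2 from 1262752 lay within the 1603 bases of replicate 1 from 1261682. The widest break of all was in block 14, where replicate 2 had nothing from 1088602 to 1094722, or 6121 bases, and replicate 1 was interrupted there for only 329 bases. In block 16, replicate 1 broke for 970 bases at 1183708, and the only cluster of replicate 2 started within that break, at 1184335, 5744 bases inside the block.

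Several breaks were seen in a single replicate. Block 13 was 1 cluster in replicate 2, from 933055 to 983136, and 4 clusters in replicate 1, separated by 902, 290 and 212 bases. Block 10 was 1 cluster in replicate 2 and was cut by 899 bases at 677847 in replicate 1. Block 5 was cut by 220 bases at 316282 in replicate 1 alone. Block 3 was broken in both replicates but at different places, for 286 bases at 189630 in replicate 1 and for 2762 bases at 190282 and 1001 bases at 247569 in replicate 2.

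The pieces of a split block were unequal in score. The score is the authors' own number for a region, nothing in the labels or headers gives its scale, and it was ranked only within a list. In 11 of the 12 blocks split in replicate 1, and in 6 of the 8 split in replicate 2, the widest piece was also the piece with the highest score. Score rose with width over all chromosome 4 clusters, with Spearman correlations of 0.80 in replicate 1 and 0.86 in replicate 2. On the large arms the correlations were 0.69 and 0.76. Whether the pieces of blocks go beyond that was not tested. The widest pieces of replicate 1 scored 1.76 at the median, and the 22 remaining pieces a median of 0.822, with a range of 0.510 to 2.17. Among these 22, the cluster shared by blocks 4 and 5 was counted in each. Those of replicate 2 scored 2.09 at the median, and the 14 remaining pieces a median of 0.828, with a range of 0.375 to 2.16. Block 9 shows the steps within a single block. In replicate 1 its left piece of 23.4 kb scored 1.66 and the next piece 0.569, followed by a piece at 0.634. In replicate 2 the same order was 2.07, 0.375 and 0.648. Block 10 was the exception in replicate 1, where the narrower right piece of 14.5 kb scored 2.17 and the wider left piece of 19.0 kb scored 1.58.

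In each replicate, most outer edges of the blocks lay within 500 bases of those of the replicate set, which is not treated as independent. The first cluster of a block began within 500 bases of the block's start in 12 of 17 blocks in replicate 1 and in 10 in replicate 2, and the last cluster ended within 500 bases of the block's end in 13 and 11. The median distance from the replicate-set start was 129 bases in replicate 1 and 157 in replicate 2, and from the end 213 and 133 bases. Block 2 in replicate 2 departed from the replicate set by 4 bases at its start and 25 at its end. Other starts were far off: in replicate 2 those of blocks 16, 14, 3 and 5 lay 5744, 2024, 1330 and 1223 bases inside the block. In replicate 1 the farthest start was that of block 16, 1439 bases inside. At the right end of block 12, replicate 2 ran on for 2111 bases beyond the block, to 930373, and replicate 1 stopped short of it, at 927980.

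Not every edge of a block was an end of cover. In the replicate set, 15 of the 34 block edges had another cluster within 500 bases: 3 blocks had such a neighbour on both sides, 9 on a single side and 5 on neither. Blocks 4 and 5 were separated by 41 bases, and blocks 9 and 10 by 134 bases. Block 6 began 87 bases after a 7.92 kb cluster, and block 7 ended 48 bases before a 2.26 kb cluster. When clusters of a list less than 1000 bases apart were joined, the 88 clusters of the replicate set became 54, the 85 of replicate 1 became 55 and the 75 of replicate 2 became 57, so that 61.4%, 64.7% and 76.0% of their number were left. The same step left 85.1%, 88.8% and 89.5% on the large arms, which are the X and both arms of chromosomes 2 and 3, a difference that was not tested. After joining, the widest stretch of the replicate set ran from 172336 to 341429, 169 kb made of 7 clusters. In replicate 1 the widest was 84.0 kb, from 1022598 to 1106607, and in replicate 2 it was 64.3 kb, from 1024325 to 1088601.

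Most clusters of chromosome 4, blocks included, recurred in the other replicate. Of the 85 clusters of replicate 1 on chromosome 4, 73 (85.9%) were overlapped by at least 1 base of a replicate 2 cluster, against 67.8% of all clusters in the list. Of the 75 clusters of replicate 2, 68 (90.7%) were overlapped in replicate 1, against 84.2% of the whole list. Wider clusters meet more easily, and these shares were not tested against that. When the overlapping clusters of both replicates were grouped, 78 groups resulted. In 43 of them a single cluster of replicate 1 met a single cluster of replicate 2, in 8 several clusters of replicate 1 met 1 of replicate 2, in 4 the reverse held, and in 4 several met several. The remaining 12 were clusters of replicate 1 alone and 7 of replicate 2 alone.

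The 43 matched pairs gave the displacement of an edge between the replicates. The median over their 86 edges was 142.5 bases, with quartiles at 57 and 569 bases. The value depended on the matching: it was 233.5 bases when a pair had to overlap by at least 50% of each cluster, 264 with clusters less than 1000 bases apart joined, and 390 as the distance from every cluster to the nearest edge of the same kind. Starts had a median displacement of 127 bases and ends of 284 bases. Edges displaced by at most 500 bases numbered 63 of 86, or 73.3%, against 88.2% over all matched pairs of the genome, and on the large arms the median displacement was 91 bases. Pairs of a mean width under 5 kb had a median displacement of 127.5 bases on chromosome 4 (27 pairs) and 90 bases on the large arms (3914 pairs), a difference that was not tested, since 2 replicates allow no test over samples. The clusters of replicate 1 were the wider of the pair in 26 of 43 cases on chromosome 4. On the large arms replicate 2 was the wider in 2504 of 3991 pairs.

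**Figure D2:**
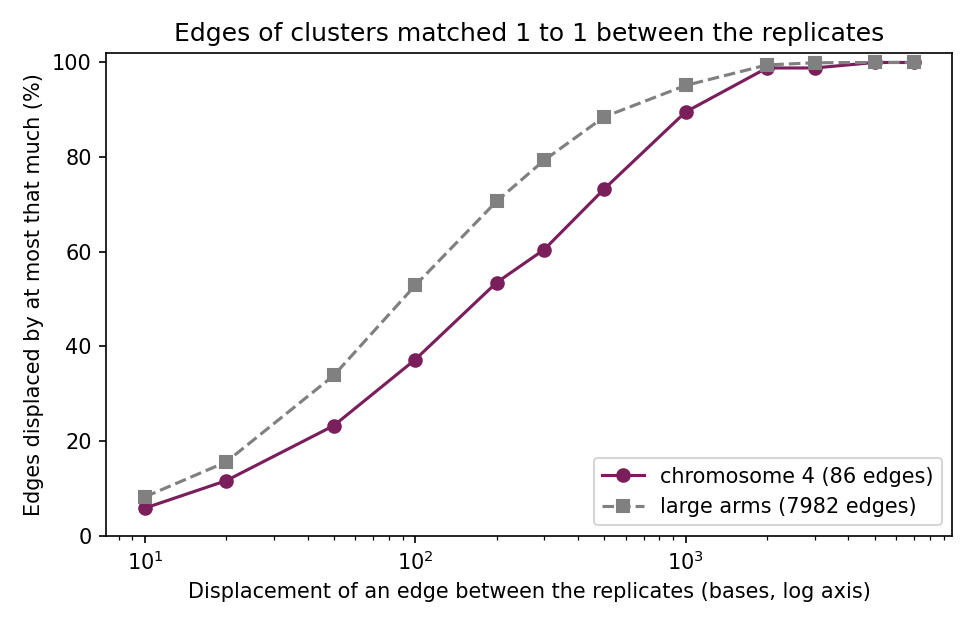
Share of cluster edges (%, vertical axis) displaced between the replicates by at most the number of bases on the horizontal log axis, for clusters matched 1 to 1 on chromosome 4 (86 edges, purple) and on the large arms (7982 edges, grey). At 500 bases the curve of chromosome 4 stands at 73.3% and that of the large arms at 88.5%.

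The 5 pairs with the smallest displacement were narrow clusters, all of 1.66 to 3.01 kb. The closest lay at 444382 to 446488 in replicate 1 and 444408 to 446471 in replicate 2, where the edges differed by 26 and 17 bases. The next were at 506259 to 508378 (57 and 47 bases), 253533 to 255188 (59 and 57 bases), 1281192 to 1283106 (57 and 75 bases) and 853847 to 856753 (111 and 7 bases), in replicate 1 positions. The largest displacement belonged to a cluster at 179830 to 186066 in replicate 1, which in replicate 2 began 3686 bases later, at 183516, and was only 2.00 kb wide. It was followed by the long right piece of block 8, whose start differed by 1988 bases while its end differed by 395. A cluster at 106717 in replicate 1 began 1778 bases earlier in replicate 2, another at 449819 began 1603 bases later, and the right piece of block 14 began 1537 bases later and ended within 67 bases.

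Clusters found in a single replicate were mostly narrow and of low rank. The 12 of replicate 1 were 1614.5 bases wide and scored 0.540 at the median, and 11 of them lay under a cluster of the replicate set. The widest of the 12 measured 4948 bases, at 255317 to 260264. The 7 of replicate 2 were 1350 bases wide and scored 0.510 at the median, and all 7 lay under the replicate set. The highest score among the 12 was 1.09, at 1296542 to 1298214, which ranked 33 of the 85. The next were 0.661 at 1180030 to 1183707, 0.655 at 25252 to 26817, 0.593 at 1125322 to 1126824 and 0.575 at 1176077 to 1177834. In replicate 2 the highest was 0.646 at 776442 to 777759, which ranked 50 of the 75, followed by 0.591 at 509280 to 510590, 0.587 at 260981 to 262524, 0.510 at 749476 to 750864 and 0.509 at 819031 to 820344. The replicate 2 cluster at 749476 had no replicate 1 cluster within 18297 bases on either side, whereas the one at 177872 began only 2 bases after a replicate 1 cluster ended.

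The replicate set also listed clusters that neither replicate had. Of its 88 clusters, 52 (59.1%) were overlapped in both replicates, against 47.4% of the whole list, and 21 (23.9%) in neither, against 27.2%. The 21 together held 30.4 kb, and 11 of them were narrower than 1301 bases, below which no replicate list had a cluster. Of the 21, 9 lay after the last block, in the final 72.8 kb of the chromosome, which held 16 of the list's 88 clusters. The highest-scoring of all, at 1311575 to 1312575, scored 3.03, the top score of chromosome 4 in that list, and was 1001 bases wide. The other 4 highest among the 21 were also in that end or at the foot of block 17, at 1279291 to 1281021 (0.956), 1315545 to 1317339 (0.852), 1304419 to 1306199 (0.784) and 1313061 to 1314095 (0.693).

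Uncovered sequence lay largely at the same places in both replicates. Of the 439 kb of chromosome 4 without a cluster in replicate 1, 92.1% was uncovered in replicate 2 as well, and of the 468 kb of replicate 2, 86.4% was uncovered in replicate 1, a mean of 89.3% ± 4.03 (SD, n = 2). Clusters covered 67.6% and 65.4% of chromosome 4 in these lists, and 11.6% and 10.2% of the large arms. What share would be common at such cover without matched positions was not computed, and the share on the large arms is not given here. Gaps between neighbouring clusters measured 1449 bases at the median in the replicate set, 2063 in replicate 1 and 3064.5 in replicate 2. On the large arms the medians were 5529.5, 7449 and 7972 bases. Short gaps under 1000 bases made up 39.1%, 35.7% and 24.3% of the gaps of chromosome 4, and 14.9%, 11.2% and 10.5% of those of the large arms. Cover was denser on chromosome 4, in the replicate set 74.2% against 15.4% on the large arms. Whether gap lengths differ beyond that was not tested. Gaps of at least 5 kb were few, 22, 25 and 32 in number, yet held 72.4%, 79.2% and 86.4% of the uncovered length between clusters.

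**Figure D3:**
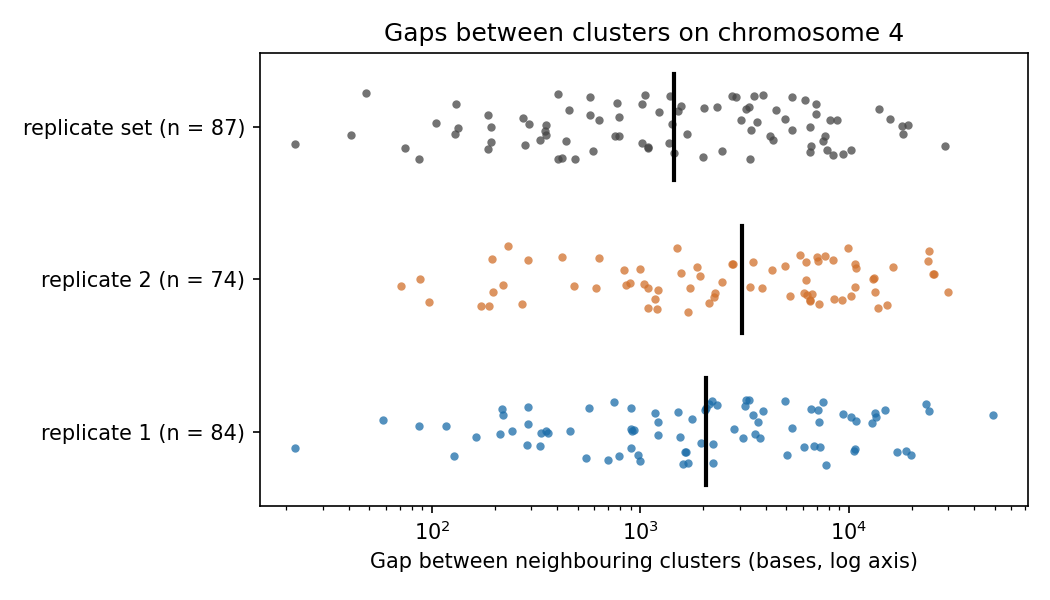
Length in bases (log axis) of each gap between neighbouring clusters of chromosome 4 in replicate 1 (n = 84), replicate 2 (n = 74) and the replicate set (n = 87); points are spread vertically for legibility and black bars are medians. The medians stand at 2063, 3064.5 and 1449 bases, and gaps extend from 22 to 48951 bases.

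Stretches that no list covered numbered 87, of which 23 were at least 5 kb long and held 254 kb, or 74.1% of the 343 kb. The longest, 29.1 kb from 720211 to 749263, followed block 11. The cluster on its left ended at 720206 in the replicate set, at 720210 in replicate 1 and at 719473 in replicate 2. A narrow cluster at 749264 in the replicate set and 749476 in replicate 2 closed it, and replicate 1 had none before 769162, so the gap ran on for 29057 bases in the replicate set, 48951 in replicate 1 and 30002 in replicate 2. Replicate 1 had a gap of 23385 bases from 529327 to 552711, and replicate 2 had 1 of 25389 bases from 527110 to 552498. The replicate set placed a cluster of 1.21 kb inside both. By contrast, the gap from block 5 to the 7.92 kb cluster before block 6 had nearly the same length in replicate 1, replicate 2 and the replicate set, at 6787, 6484 and 6513 bases. The gap between blocks 10 and 11 measured 6588, 6670 and 6514 bases, with blocks of high score on its left side (2.17, 2.29 and 2.07 for the adjoining cluster). The stretch before block 12 measured 16940, 16355 and 15721 bases and that after block 14 measured 18714, 23846 and 17921. Other long stretches that no list covered were 1 to 25251, 834423 to 853735 and 752677 to 769161, of 25.3, 19.3 and 16.5 kb.

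Of the 23 stretches, 16 were between 5 and 10 kb long. On the left part of the chromosome they began at 33657, 97968 and 341471. Around block 7 they began at 410796, 428652, 439314, 512510 and 529603, with lengths of 5.07 to 8.73 kb. The next began at 693263 and 810631, the latter 8.40 kb long just after the cluster with the highest score on chromosome 4 in both replicates. Between blocks 13 and 14 there were 3, beginning at 991148, 1002677 and 1012331. The last 3 began at 1284761, 1323897 and 1335767, in the end of the chromosome.

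The blocks were not spread evenly. Between blocks, and at the ends of the sequence, 9 stretches without a block reached 20 kb and together held 515 kb. The longest, 153 kb from 720207 to 872945, was covered to 28.1% in the replicate set, 16.1% in replicate 1 and 17.7% in replicate 2. The end of the chromosome from 1279105 was next, 72.8 kb long and covered to 40.5%, 21.7% and 19.2%. The stretches on either side of block 7, 56.3 and 54.8 kb long, were covered to 32.2% and 28.2% in replicate 1 and to 23.6% and 27.0% in replicate 2. The stretch between blocks 14 and 15, 22.9 kb, held a single narrow cluster in replicate 1 and none within it in replicate 2. The 47.8 kb between blocks 1 and 2 stood out as the best covered of the long ones in replicate 2, at 48.7%, and held a cluster of 11.3 kb at 80299 to 91609 that scored 2.17. In replicate 1 that stretch, at 47.3%, was second to the 21.2 kb between blocks 2 and 3, at 55.8%.

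Wider clusters had the higher scores in every list. Over the clusters of chromosome 4 the Spearman correlation of score with width was 0.67 in the replicate set (n = 88), 0.80 in replicate 1 (n = 85) and 0.86 in replicate 2 (n = 75). On the large arms it was 0.58, 0.69 and 0.76. Both are descriptions across clusters of a list, which share a library. Each block of each list was in the top 10% of scores of its list on the major chromosomes (the large arms and chromosome 4). In all, 28 of 85, 23 of 75 and 24 of 88 clusters of chromosome 4 were in that group, which holds 10% of every list by construction. Blocks accounted for 15, 15 and 17 of them. The median block stood at percentile 96.5 in replicate 1 and 96.3 in replicate 2, a mean of 96.4 ± 0.184 (SD, n = 2).

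**Figure D4:**
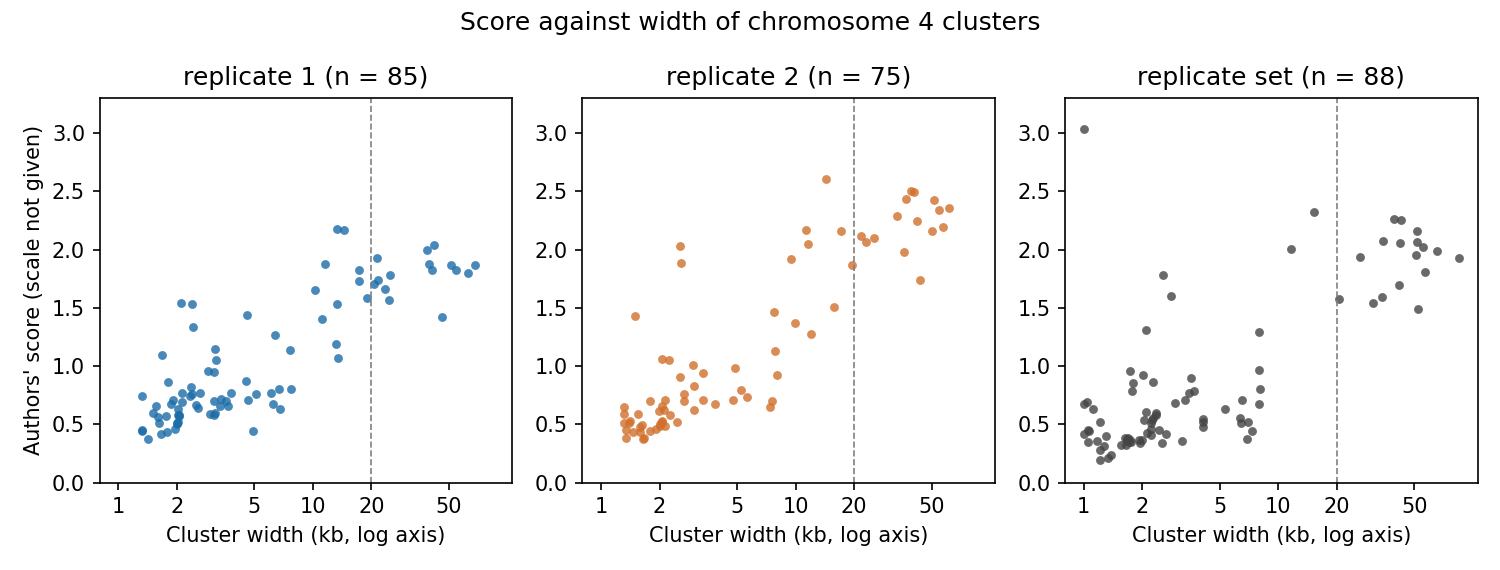
Score as the authors gave it (vertical axis, scale not given) against cluster width in kb (log axis) for the clusters of chromosome 4 in each list, with a dashed line at 20 kb. Blocks to the right of the line score at least 1.49 in the replicate set, 1.42 in replicate 1 and 1.74 in replicate 2, and the isolated point at 1.00 kb in the replicate set scores 3.03.

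Narrow clusters of chromosome 4 scored well below its blocks. Clusters of 2 to 5 kb on chromosome 4 scored 0.704, 0.708 and 0.551 at the median in replicate 1, replicate 2 and the replicate set, against 0.842, 0.949 and 0.719 for the same widths on the large arms. Under 2 kb the medians were 0.564, 0.491 and 0.367 on chromosome 4 and 0.499, 0.456 and 0.371 on the large arms. Between 5 and 20 kb they were 1.27, 1.42 and 0.673 against 1.12, 1.28 and 1.03, where the clusters of chromosome 4 were the wider ones. These differences were not tested, since clusters of a list are not replicates.

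A few narrow clusters ranked high. Of the clusters under 5 kb, 4 of 58 in the replicate set, 4 of 51 in replicate 1 and 2 of 44 in replicate 2 were in the top 10%. These are 6.90%, 7.84% and 4.55% of them, against 9.04%, 9.18% and 9.27% of the clusters under 5 kb on the large arms, a difference that was not tested. A pair near the right end recurred in both replicates and stood in the replicate set as well. The cluster at 1333305 to 1335697 in replicate 1 scored 1.54, that at 1333061 to 1335607 in replicate 2 scored 2.03, and that of the replicate set, at 1333210 to 1335766, scored 1.78. The last cluster of the chromosome, at 1346271 to 1348694 in replicate 1, scored 1.34 there, 1.60 in the replicate set and 1.88 in replicate 2. The cluster at 444382 to 446488, whose edges were the closest between the replicates, scored 1.55 in replicate 1 and 1.31 in the replicate set and was in the top 10% of both, but at 1.06 in replicate 2 it was not.

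The highest scores of chromosome 4 belonged to much the same places in both replicates. The widest cluster of the long stretch between blocks 11 and 12 led the chromosome 4 clusters of each replicate, at 797245 to 810592 in replicate 1 (13.3 kb, score 2.17) and 796347 to 810629 in replicate 2 (14.3 kb, score 2.61). Scores on the large arms reached 3.59 in replicate 1 and 4.17 in replicate 2. On chromosome 4 in the replicate set that cluster came second, at 2.32. Next in replicate 1 were the right piece of block 10 (2.17), block 15 (2.04), block 2 (1.99) and the left piece of block 13 (1.93). In replicate 2 they were block 2 (2.50), block 15 (2.50), the long piece of block 8 (2.43) and block 7 (2.43). In the replicate set blocks 2, 15 and 7 followed at 2.26, 2.26 and 2.16.

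The lowest scores of chromosome 4 were mostly those of narrow clusters. In replicate 1 they were 0.373 at 794056, 0.415 at 253533, 0.433 at 169497, and 0.444 each at 769162 and 255317, the last 4948 bases wide. In replicate 2 they were 0.375 at 649429, inside block 9, then 0.382 at 253474, 0.383 at 177872, 0.434 at 172702 and 0.435 at 424165. The cluster that began at 253533 in replicate 1 and 253474 in replicate 2 was thus among the lowest 5 of both, and its edges were among the most closely placed. In the replicate set the lowest were 0.195 at 511298, 0.209 at 1283430, 0.237 at 794055, 0.282 at 537311 and 0.310 at 1299839.

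Along the chromosome, the blocks held much the same order of score in both replicates and in the replicate set, which is not treated as independent of them. With the pieces of a split block averaged by length, replicate 1 scored the blocks between 1.37 and 2.04 and replicate 2 between 1.53 and 2.50. Blocks 2 and 15 were the highest in every list, block 7 ranked 3 in every list, and blocks 1, 4, 9 and 11 filled the 4 lowest places in every list. The Spearman correlation over the 17 blocks was 0.95 between the replicates, given as a description because the blocks share libraries. Block 1 scored 1.45 in replicate 1 and 1.53 in replicate 2, block 4 scored 1.37 and 1.62, block 9 scored 1.38 and 1.65, and block 11 scored 1.45 and 1.64. Block 10, which lay between the low blocks 9 and 11, scored 1.84 and 2.29. The width of a block had little relation to its score, with a Spearman correlation of 0.15 over the 17 blocks of the replicate set.

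**Figure D5:**
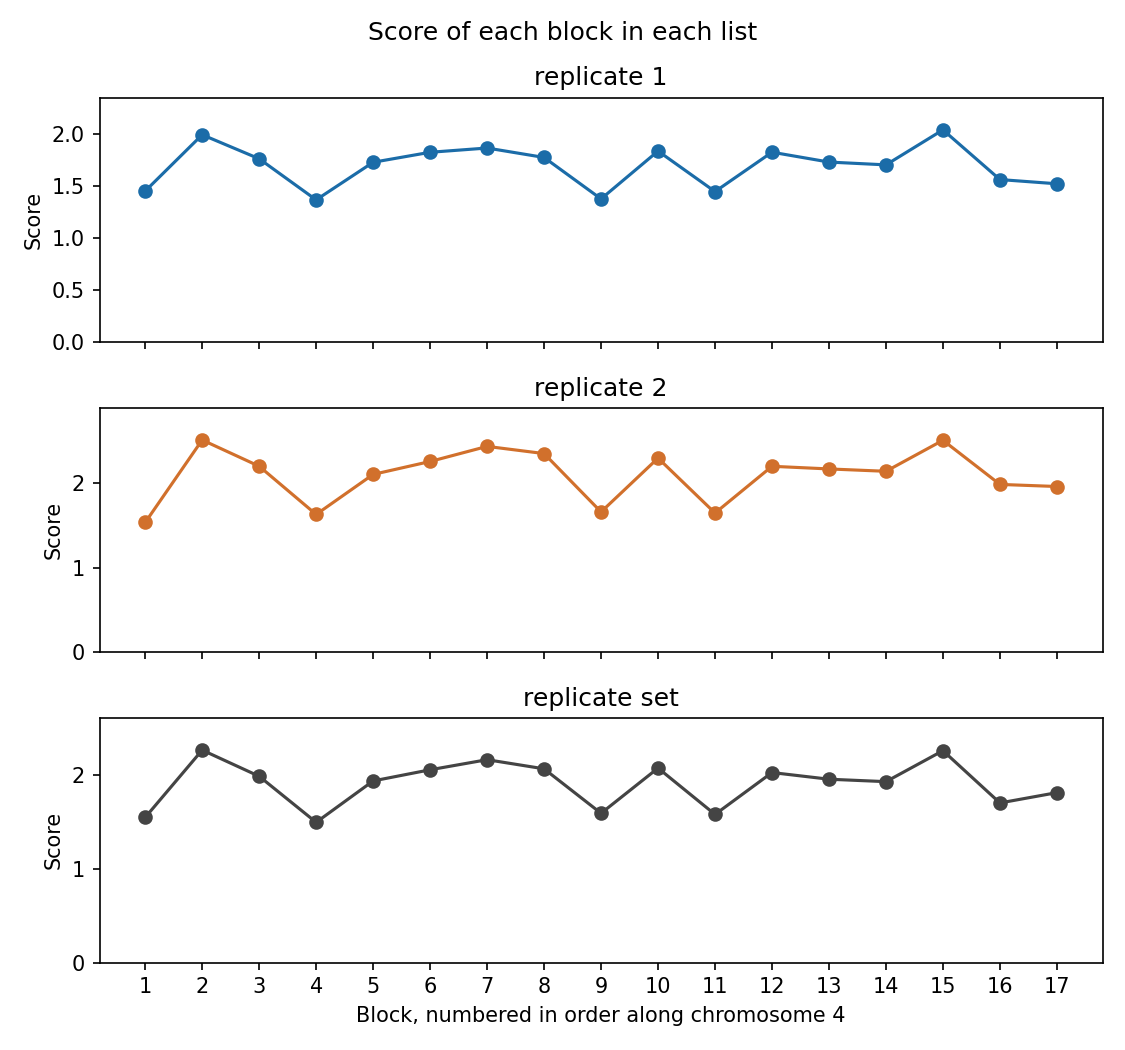
Score of each of the 17 blocks in order along chromosome 4, in replicate 1, replicate 2 and the replicate set; in the replicates the score is the length-weighted mean of the clusters over the block, and each panel has its own axis from 0. Blocks 2 and 15 are the highest in each panel, and blocks 1, 4, 9 and 11 hold the 4 lowest places.

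Scores were also averaged in windows of 100 kb, which mix blocks with the clusters around them. The length-weighted score of the covered sequence was highest between 800001 and 900000 in replicate 1, at 1.73, although clusters covered only 43.8% of that window. In replicate 2 and the replicate set it was highest between 1100001 and 1200000, at 2.24 and 1.91. The window from 100001, which holds block 2, ranked only 9 in replicate 1 and 11 in the other lists. The first window had the lowest score of the complete windows in replicate 2, at 1.46, and that from 700001 the lowest in replicate 1 and the replicate set, at 1.36 and 1.17. The incomplete last window, from 1300001, was lower than any complete window in each list, at 1.10, 1.33 and 1.08. Cover and score of a window were only loosely related, with Spearman correlations of 0.35, 0.26 and 0.43 over the 13 complete windows of replicate 1, replicate 2 and the replicate set.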

How the data were processed

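Bowtie 0.12.7, a read aligner, is named without its role or settings per the submitters' processing notes, and positions refer to FlyBase release 5 per the file headers. No source used here names the cluster caller or its thresholds, or says how the replicates were combined in the replicate set. The authors deposited a score for each region, whose scale is not given, together with the region's start and end. The replicates are the 2 ChIP samples by their titles. Only regions named as enriched on chromosome 4 were described, with the large arms as background, and p-values were not computed, because 2 replicates allow no test over samples and clusters are not replicates. Depth is unknown, so no counting interval is attached to any value.

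Overlap meant at least 1 shared base. Displacement was measured in clusters that overlapped exactly 1 cluster of the other replicate and were its only match. A break is uncovered sequence between 2 clusters of a replicate over the same block. The score percentile was taken among clusters of the major chromosomes of the same list. Python 3.11.15, numpy 2.4.6, pandas 2.3.3, scipy 1.17.1, networkx 3.6.1 and matplotlib 3.10.9 were used, and the code was tested on simulated intervals with known splits and displacements. Members, lists, limits and the rule for named regions were chosen with earlier results of these data known. The rule named blocks of the replicate set, breaks inside them, the 5 pairs of largest and of smallest displacement, shared gaps of at least 5 kb, the 5 highest and 5 lowest scores of each list, and the 5 highest-scoring clusters without overlap; the narrow clusters in the top 10% of scores, the joined stretches and the 100 kb windows were added after their values were seen. Alternatives were score, width and overlap thresholds, joining of close clusters, other block limits and leaving out each replicate.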

Additional observations from a re-analysis of the deposited data

How the results depend on the processing

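No paired analysis was possible because only the ChIP samples have cluster lists here, so no fit between ChIP and input samples could be made. The median edge displacement of 142.5 bases was 142.5 also among clusters at or above the median score of their list. It was 233.5 with at least 50% overlap of both clusters, 264 with close clusters joined, 390 as the distance to the nearest edge of the same kind for every cluster, 127 for starts and 284 for ends. The number of split blocks, 10.0 on average, was 8 to 12 when a replicate was left out and 5.00 when clusters less than 1000 bases apart were joined; block limits of 10 and 30 kb, the 50% overlap and the score threshold kept it between 8.00 and 10.5. Breaks sharing at least 1 base with uncovered sequence of the other replicate numbered 10 in replicate 1 and 8 in replicate 2. Under the 50% overlap, an alternative chosen after seeing the data, 4 remained in each. The share of uncovered sequence common to the replicates was 86.4% to 92.1% in the single lists and 94.3% for gaps of at least 10000 bases. The covered share was 65.4% to 67.6% in the single lists, 61.3% with the score threshold and 64.4% without clusters under 2000 bases. The share of overlapped clusters was 85.9% to 90.7% in the single lists, 83.3% where at least 50% of a cluster had to be covered, and 84.2% ± 18.7 (SD, n = 2) with the score threshold. The block percentile was 96.3 to 96.5 in the single lists, 96.0 and 96.8 with block limits of 10 and 30 kb, and 88.2 when ranked on chromosome 4 alone. The cause of these shifts was not tested. Read depth is unknown, and the number, width and breaks of clusters may depend on it.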
